A study of Mus musculus with 9 samples.

Results

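The genes described are 8 genes that mark conventional dendritic cells: Clec9a, Batf3, Xcr1, Flt3, Cd209a, Dpp4, Itgae and Fscn1. They were taken by symbol from a table of 18042 genes, and all 8 were found. They were measured by RNA sequencing in 9 libraries of tumour-associated macrophages (TAMs), sorted as CD11b+ F4/80+ cells from subcutaneous tumours of MC38, a mouse colon carcinoma line. The mice were female wild-type C57BL/6 mice, 6 to 8 weeks old when injected with the tumour cells and assigned to groups on day 9. IN@OMVs tumours (3 libraries) and OMVs tumours (3 libraries) were injected with those vesicles at 12.5 µg vesicle protein per mouse, which is 625 µg/kg. Control tumours (3 libraries) were injected with an equal volume of solvent, which a description names as PBS. The abbreviation OMVs commonly stands for outer membrane vesicles of bacteria, but the labels explain neither it nor IN. The labels call the libraries biological replicates without saying whether each is 1 mouse or a pool, so p-values measure the spread between these samples.

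Conventional dendritic cells (cDCs) take up antigen in tissues, carry it to lymph nodes and present it to T cells. Type 1 cDCs (cDC1) cross-present antigen from dead tumour cells to CD8+ T cells and depend on the transcription factors IRF8 and BATF3. Type 2 cDCs (cDC2) mainly prime CD4+ T cells, and monocyte-derived cells can resemble them. cDC1 carry little CD11b, so a gate on CD11b and F4/80 selects for other cells, and the 8 genes are read here as transcripts of a macrophage sort. Their levels were low except for Fscn1 (480 to 1313 reads a library) and, less so, Dpp4 (144 to 281 reads).

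Library totals ran from 16813230 to 17288322 expected counts, the estimated reads per gene. Levels are given as CPM, which divide a gene's count by the library total scaled with a TMM factor. The sort markers were present in all libraries: Adgre1, which encodes F4/80, averaged 459 ± 96.2 CPM in IN@OMVs, 506 ± 96.3 CPM in OMVs and 494 ± 44.4 CPM in Control (SD, n = 3 each). Itgam, which encodes CD11b, averaged 1241 ± 211 CPM in IN@OMVs, 1662 ± 207 CPM in OMVs and 1752 ± 39.1 CPM in Control. All IN@OMVs libraries lay below all others for Itgam, with a log2 fold change of -0.50 against Control (edgeR adjusted p = 0.0512) and -0.42 against OMVs (edgeR adjusted p = 0.147). None of 13 macrophage markers was at 0 in a library. Other cells' transcripts varied as well. Summed over 16 T cell markers, the level was 381, 339 and 376 CPM in library 1 of IN@OMVs, OMVs and Control, against 116 to 216 CPM in the other 6 libraries. Neutrophil markers (10 genes) summed to 129 to 197 CPM in IN@OMVs, 564 to 749 CPM in OMVs and 789 to 1158 CPM in Control. Monocyte markers (10 genes) summed to 1454 to 1815 CPM in IN@OMVs, 1923 to 2303 CPM in OMVs and 2672 to 2895 CPM in Control. Of the 10, edgeR called 6 lower in IN@OMVs against Control (3.24% of all tested genes). It called 2 lower in IN@OMVs against OMVs (1.75%) and 1 lower in OMVs against Control (0.122%). The part of these shifts in the levels of the 8 genes was not tested. Fibroblast markers (11 genes) summed to 1506 CPM in IN@OMVs 1 and to 3389 to 5710 CPM in the other 8 libraries. In bulk RNA, a change in the number of cells of a type and a change in RNA per cell cannot be told apart.

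Clec9a and Batf3, both cDC1 genes, were higher in IN@OMVs than in Control. The RefSeq sequences of 250 bases upstream of their starts (build GRCm38.p6, from a promoter table that matched 7 of the 8 genes, Itgae being the other) are shown because these were the members that rose. They were searched on both strands for TGANTCA (the AP-1 motif that BATF proteins can bind with partners) and the ISRE motif of interferon-responsive genes (GAAA, any 2 bases, GAAA). Capitals would mark a match.
Batf3, chr1:191098164-191098413, plus strand: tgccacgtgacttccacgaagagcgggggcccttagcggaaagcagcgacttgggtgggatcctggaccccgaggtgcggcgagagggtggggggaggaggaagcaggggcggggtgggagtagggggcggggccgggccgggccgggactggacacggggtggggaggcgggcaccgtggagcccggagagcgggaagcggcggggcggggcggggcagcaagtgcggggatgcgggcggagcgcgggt
Clec9a, chr6:129408612-129408861, plus strand: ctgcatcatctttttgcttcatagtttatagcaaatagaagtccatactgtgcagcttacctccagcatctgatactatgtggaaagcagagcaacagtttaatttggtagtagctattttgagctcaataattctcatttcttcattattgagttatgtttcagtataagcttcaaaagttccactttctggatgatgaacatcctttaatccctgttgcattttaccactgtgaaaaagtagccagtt
The Batf3 sequence is 76.0% G or C and that of Clec9a 35.6%, and neither holds a match to these motifs, which says only that the letters are not in this window. Of 32851 RefSeq promoters cut to the same 250 bases, 6.75% hold an AP-1 match and 2.98% an ISRE match.

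Clec9a encodes a lectin receptor (DNGR-1) that binds actin filaments exposed by dead cells and directs their antigens to cross-presentation. Clec9a had low counts, from 22 to 69 reads a library. It stood at 4.25, 3.08 and 3.90 CPM in IN@OMVs libraries 1, 2 and 3, at 2.07, 2.10 and 2.81 CPM in OMVs, and at 1.73, 1.29 and 1.50 CPM in Control. The 3 groups did not overlap, and their order was IN@OMVs, OMVs, Control. Against Control, the log2 fold change of IN@OMVs was 1.31 ± 0.22 (SE, n = 3 each; edgeR adjusted p = 0.00832), a 2.48-fold difference with a 95% interval of 0.82 to 1.80 on the log2 scale. This call was made under all 17 alternative settings tried, in which the log2 fold change ran from 1.20 to 1.43. Against OMVs the log2 fold change of IN@OMVs was 0.69 (95% interval 0.21 to 1.16, edgeR adjusted p = 0.159), and OMVs against Control gave 0.63 (0.12 to 1.13, edgeR adjusted p = 0.427). Neither passed the adjusted threshold of 0.05, although both intervals lay above 0.

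Batf3 encodes a basic leucine zipper factor required for cDC1 development. Batf3 had low counts, from 24 to 90 reads a library. It stood at 5.54, 3.48 and 4.71 CPM in IN@OMVs, at 1.55, 2.04 and 2.51 CPM in OMVs, and at 1.43, 2.05 and 1.96 CPM in Control. Every IN@OMVs library was above every OMVs and Control library, while those of OMVs and Control overlapped. The log2 fold change was 1.17 ± 0.25 for IN@OMVs against OMVs (edgeR adjusted p = 0.0476) and 1.33 ± 0.26 for IN@OMVs against Control (edgeR adjusted p = 0.0168). OMVs against Control gave 0.16 (95% interval -0.44 to 0.77, edgeR adjusted p = 0.98). Over the 17 alternative settings the value against OMVs ran from 0.85 to 1.35, and it was 1.17 without Control 1, 2 or 3. The call against OMVs held in 1 of 9 omissions of a single library, that of IN@OMVs 2. Its adjusted p was 0.051 without IN@OMVs 1, 0.14 without IN@OMVs 3, 0.175, 0.174 and 0.0758 without OMVs 1, 2 and 3, and 0.0576, 0.0861 and 0.0963 without Control 1, 2 and 3. The call also ended with limma-voom (0.0531), in the fit of only 6 libraries (0.124), with the replicate block (0.0818) and without the libraries numbered 1 (0.0709), while DESeq2 gave 0.00657. Against Control the call ended without IN@OMVs 3 (0.0583) and without Control 1, 2 or 3 (0.0674, 0.055 and 0.0657).

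Xcr1 encodes the receptor for XCL1, a chemokine of NK cells and CD8+ T cells that draws cDC1 to them. Its counts were low, from 12 to 53 reads a library. The level was 3.26, 1.94 and 1.92 CPM in IN@OMVs, 1.89, 0.699 and 1.49 CPM in OMVs, and 1.55, 0.993 and 1.04 CPM in Control. The IN@OMVs libraries were the 3 highest, by a narrow margin over OMVs 1. Library 1 was the highest of each group, as it was for the summed T cell markers. The part of T cell transcripts in the Xcr1 values was not tested. The log2 fold change was 0.79 for IN@OMVs against OMVs (95% interval -0.07 to 1.66, edgeR adjusted p = 0.397) and 0.99 for IN@OMVs against Control (0.11 to 1.86, edgeR adjusted p = 0.194). OMVs against Control gave 0.19 (-0.71 to 1.10, edgeR adjusted p = 0.987). A doubling was therefore inside the intervals of all 3 comparisons and none passed the test.

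Itgae encodes the alpha chain of CD103, an integrin of many tissue cDC1 and also of tissue-resident T cells. It stood at 5.05, 2.11 and 2.97 CPM in IN@OMVs, 5.40, 2.33 and 2.45 CPM in OMVs, and 7.51, 3.62 and 2.53 CPM in Control. Library 1 was the highest in each group, as it was for the summed T cell markers, and the groups overlapped. None of the 3 log2 fold changes passed: -0.01 for IN@OMVs against OMVs, -0.43 for IN@OMVs against Control and -0.42 for OMVs against Control (edgeR adjusted p = 0.995, 0.706 and 0.943). The part of T cell transcripts in these values was not tested.

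Dpp4 encodes CD26, a surface peptidase found on cDC1 in mice and also on T cells and some fibroblasts. Its level was 17.3, 9.52 and 12.9 CPM in IN@OMVs, 11.2, 8.51 and 8.60 CPM in OMVs, and 14.5, 9.35 and 9.04 CPM in Control. Here too library 1 was the highest of each group, and all groups overlapped. The log2 fold change was 0.49 for IN@OMVs against OMVs (95% interval -0.09 to 1.06, edgeR adjusted p = 0.444), 0.27 for IN@OMVs against Control (-0.30 to 0.84, edgeR adjusted p = 0.63) and -0.22 for OMVs against Control (-0.80 to 0.36, edgeR adjusted p = 0.943).

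Flt3 encodes the receptor tyrosine kinase that drives the development of cDCs from their progenitors. It was at 2.83, 2.05 and 3.72 CPM in IN@OMVs, 3.62, 2.56 and 2.63 CPM in OMVs, and 7.33, 3.80 and 3.74 CPM in Control. Control 1 was the highest library, and the lowest Control library exceeded the highest of IN@OMVs and of OMVs by a small margin. IN@OMVs against Control gave a log2 fold change of -0.79 (95% interval -1.52 to -0.05, edgeR adjusted p = 0.218) and OMVs against Control -0.75 (-1.48 to -0.02, edgeR adjusted p = 0.576), which did not pass. These comparisons share the Control libraries, and without Control 1 the values were -0.39 and -0.36. IN@OMVs against OMVs gave -0.03 (-0.78 to 0.71, edgeR adjusted p = 0.983). Unlike Clec9a, Batf3 and Xcr1, Flt3 had its highest level in Control.

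Cd209a encodes a lectin of the DC-SIGN family that marks cDC2 and monocyte-derived dendritic cells in mice. It had the lowest counts of the 8 genes, 6 to 36 reads a library. The level was 1.79, 1.20 and 2.09 CPM in IN@OMVs, 0.344, 0.641 and 0.776 CPM in OMVs, and 1.37, 1.81 and 0.922 CPM in Control. All OMVs libraries lay below all others, while IN@OMVs and Control overlapped. The difference was 1.52 on the log2 scale for IN@OMVs against OMVs (95% interval 0.64 to 2.39, edgeR adjusted p = 0.0847, DESeq2 adjusted p = 0.0435) and -1.21 for OMVs against Control (-2.10 to -0.33, edgeR adjusted p = 0.356). The OMVs libraries enter both of these comparisons. IN@OMVs against Control gave 0.31 (-0.49 to 1.10, edgeR adjusted p = 0.708).

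Fscn1 encodes fascin, an actin-bundling protein of mature dendritic cells that stromal and tumour cells also make. It was at 29.6, 68.2 and 59.0 CPM in IN@OMVs, 75.4, 66.8 and 50.9 CPM in OMVs, and 62.6, 64.2 and 59.2 CPM in Control. IN@OMVs 1 was the lowest library, as it was for the summed fibroblast markers, and the groups overlapped. The log2 fold change was -0.30 for IN@OMVs against OMVs, -0.24 for IN@OMVs against Control and 0.05 for OMVs against Control (edgeR adjusted p = 0.698, 0.686 and 1.00). Without IN@OMVs 1 the value against Control was 0.03, and that against OMVs was -0.02. The part of fibroblast transcripts was not tested.

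**Figure D1:**
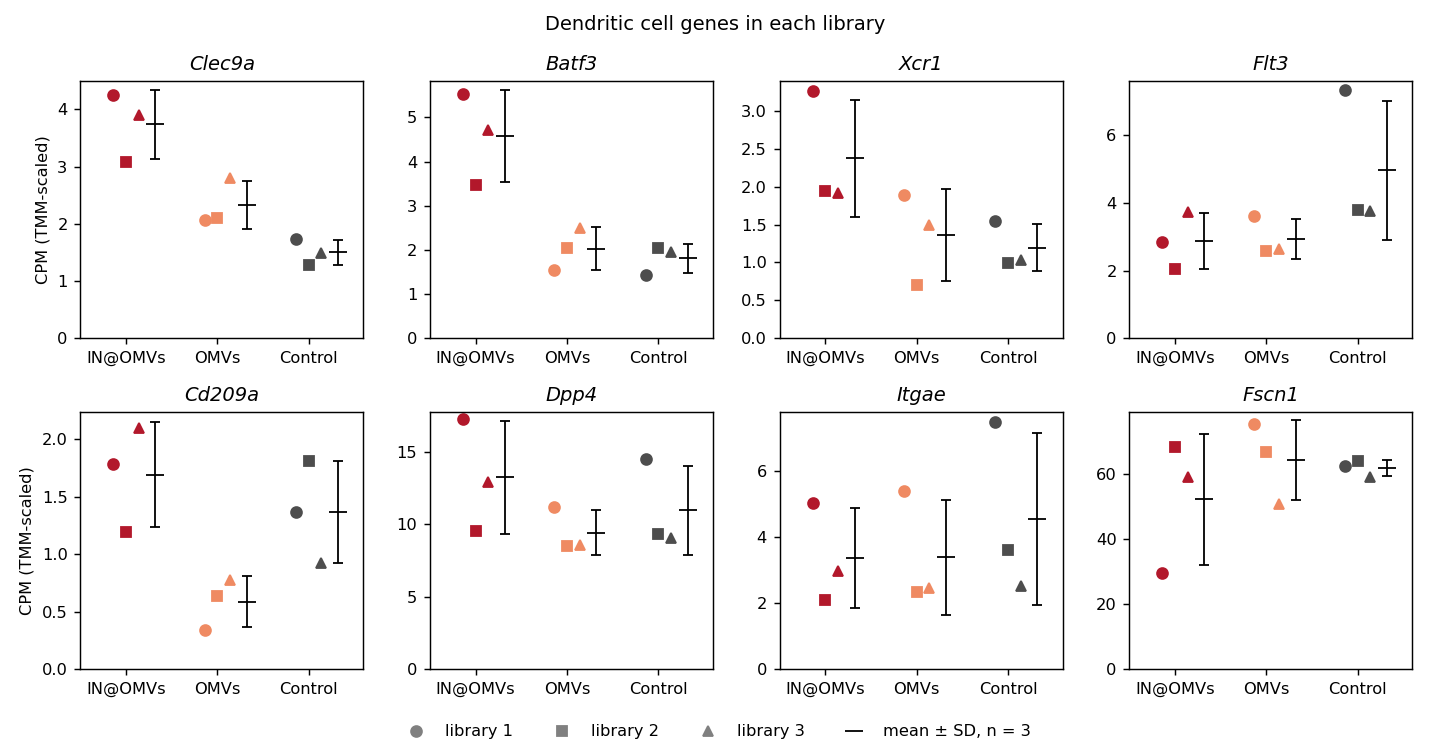
Each panel plots the level of 1 gene (CPM, TMM-scaled, axis from 0) in the 3 libraries of IN@OMVs, OMVs and Control; marker shapes give the library number and bars the mean ± SD (n = 3). Clec9a and Batf3 are highest in all IN@OMVs libraries, and Cd209a is lowest in all OMVs libraries. Xcr1, Dpp4 and Itgae are highest in library 1 of every group.

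Counted over the 8 genes, 1 was called higher and 0 lower for IN@OMVs against OMVs, where edgeR called 2.85% of 13090 tested genes in either direction (1.1% higher, 1.75% lower). For IN@OMVs against Control 2 were called higher and 0 lower, against 6.55% of tested genes called (3.32% higher, 3.24% lower). For OMVs against Control 0 of the 8 were called, against 0.42% of tested genes (55 genes, 0.298% higher and 0.122% lower), and 3 of the 8 had an unadjusted p under 0.05, as had 8.44% of all tested genes. That share was 14.4% for IN@OMVs against OMVs and 19.8% for IN@OMVs against Control. For OMVs against Control, DESeq2 and limma-voom also called 0 of the 8. All 8 passed the filter on low counts, and their counts were whole numbers in every library, so no reads were shared with other sequences by the estimate.

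The members went in different directions. Groups did not overlap, with IN@OMVs above OMVs, for 4 genes (Clec9a, Batf3, Xcr1 and Cd209a), against 8.86% of all tested genes, and with IN@OMVs below OMVs for 0 genes (8.72%). IN@OMVs lay wholly above Control for Clec9a, Batf3 and Xcr1 (13.3% of tested genes) and wholly below it for Flt3 (12.5%). OMVs lay wholly above Control for Clec9a (9.89%) and wholly below it for Flt3 and Cd209a (9.89%). The median log2 fold change of the 8 genes was 0.59 for IN@OMVs against OMVs, 0.29 for IN@OMVs against Control and -0.08 for OMVs against Control, where that of all tested genes was 0.00 in each. Profiles over the 9 libraries were compared by the root-mean-square difference of centred log2 CPM. Of 28 pairs, Clec9a and Batf3 were the most alike (0.32 log2 units) and Batf3 and Itgae the least (0.96). Flt3 lay closest to Itgae (0.39), and Dpp4 to Xcr1 (0.39) and Itgae (0.40).

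**Figure D2:**
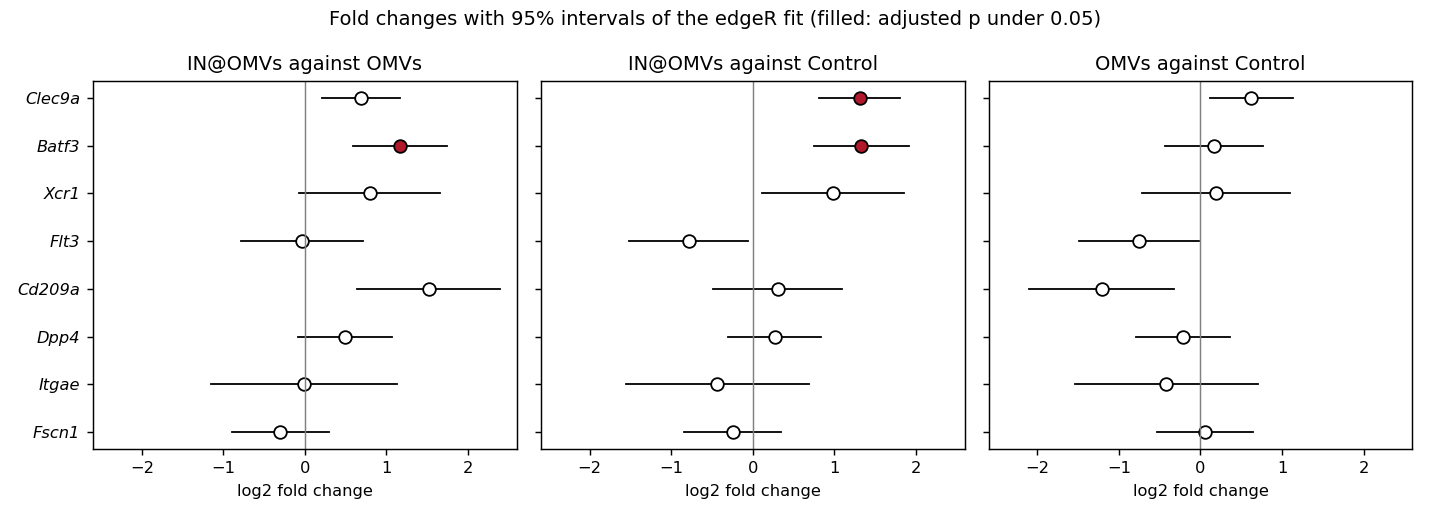
Points are log2 fold changes of the 8 genes (horizontal axis) in IN@OMVs against OMVs, IN@OMVs against Control and OMVs against Control, with 95% intervals of the edgeR fit as lines; filled points had an adjusted p under 0.05. Batf3 is filled in both comparisons of IN@OMVs, Clec9a in that against Control, and no point is filled for OMVs against Control.

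**Figure D3:**
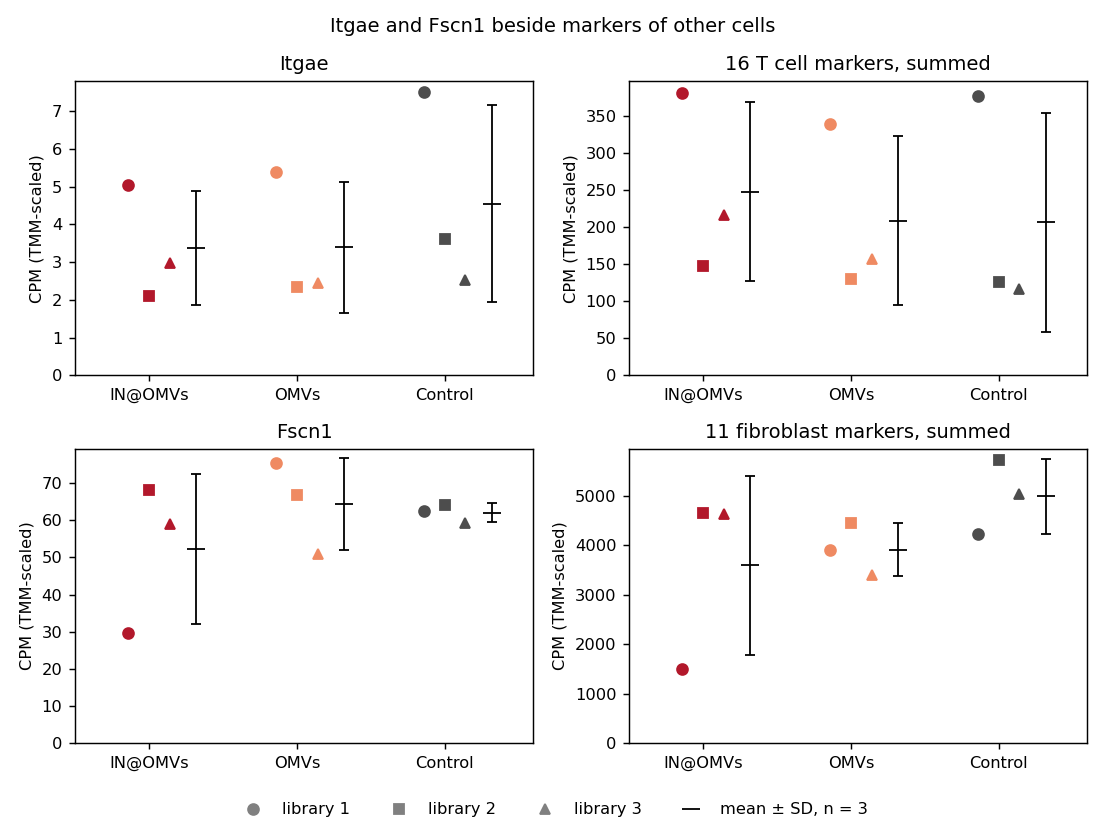
Levels per library (CPM, TMM-scaled, axis from 0; bars, mean ± SD, n = 3) of Itgae beside 16 summed T cell markers, and of Fscn1 beside 11 summed fibroblast markers. Library 1 is highest for Itgae and for the T cell markers in each group, and IN@OMVs 1 is lowest for Fscn1 (29.6 CPM) and for the fibroblast markers (1506 CPM).

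Other genes of the cDC1 programme went in both directions in IN@OMVs against Control. Of 23 listed genes 21 were tested, 5 rose and 3 fell (3.32% and 3.24% of all tested genes), with a median of 0.14. Over single-library omissions 2 to 6 rose and 2 to 3 fell; 2 rose without Control 2 and without Control 3, and 3 without Control 1. With the replicate number as a block 4 rose and 2 fell, and in a fit of only the 6 libraries 3 rose and 2 fell. Those that rose were Tlr11, an endosomal receptor for microbial profilin (4.98 ± 1.50 CPM in IN@OMVs against 1.60 ± 0.14 CPM in Control, log2 fold change 1.63, edgeR adjusted p = 0.00484), and Slamf7, a leukocyte surface receptor (80.9 ± 14.3 against 35.6 ± 1.73 CPM, 1.18, edgeR adjusted p = 0.00126). The others were Tlr3, the endosomal receptor for double-stranded RNA (0.58), Naaa, a lipid amidase (0.51), and Irf8, the transcription factor that cDC1 and other myeloid cells use (224 ± 41.7 CPM in IN@OMVs against 154 ± 8.85 CPM in Control, 0.55, edgeR adjusted p = 0.0344).

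Calls of 3 of these ended with single libraries left out. For Irf8 the edgeR adjusted p was 0.053 and 0.0596 without OMVs 1 and 2, 0.0783, 0.137 and 0.151 without Control 1, 2 and 3, and 0.0547 with the block. For Naaa it was 0.0557 without IN@OMVs 3 and 0.0576, 0.1 and 0.127 without Control 1, 2 and 3, and for Tlr3 it was 0.055 without Control 2 and 0.0542 without Control 3. Lower were Cd24a, a glycoprotein on cDC1 and on granulocytes (15.7 ± 2.40 CPM in IN@OMVs against 41.1 ± 7.36 CPM in Control, -1.39, edgeR adjusted p = 0.00182), Nfil3, a transcription factor upstream of BATF3 in cDC1 (-0.79, edgeR adjusted p = 0.0046), and Rnd3, a small GTPase (-0.33), which was outside the rule for named genes. Neutrophil markers were lower in IN@OMVs as well, in 9 of 10 genes (3.24% of all tested genes). Their part in the value of Cd24a was not tested. Other genes of the list did not pass, among them 3 named whatever their p: Wdfy4, needed for cross-presentation, had a log2 fold change of 0.03, Cadm1, an adhesion molecule, 0.23, and Id2, a transcription regulator, -0.09 (edgeR adjusted p = 0.934, 0.614 and 0.759). Without IN@OMVs 1, Wdfy4 gave -0.15 and Cadm1 -0.10, and without Control 1 Id2 gave 0.03.

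For IN@OMVs against OMVs 1 of the 21 tested genes of the cDC1 list rose and 1 fell (1.1% and 1.75% of all tested genes). Which cells of the sort made these transcripts was not tested. Slamf7 stood at 80.9 ± 14.3 CPM in IN@OMVs and 47.5 ± 7.18 CPM in OMVs (log2 fold change 0.77, edgeR adjusted p = 0.0202), and Nfil3 at 51.4 ± 6.45 and 89.7 ± 3.12 CPM (-0.80, edgeR adjusted p = 0.00766). Slamf7 lost its call without IN@OMVs 3 (0.0575), OMVs 1 (0.0871), OMVs 2 (0.0962) or Control 3 (0.0513), and in the fit of only 6 libraries (0.0792). Over the list, 3 genes rose and 2 fell with DESeq2, 3 rose without IN@OMVs 2, 2 rose and 2 fell without IN@OMVs 1, 2 fell with the block, and 3 fell without the libraries numbered 1. For OMVs against Control edgeR called 0 of 21 (6 at an unadjusted p under 0.05, against 8.44% of all tested genes; 1 by DESeq2, 0 by limma-voom), with a median of 0.01, and Irf8 had a log2 fold change of 0.14 and Tlr3 of 0.16.

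Among genes of cDC2 and monocyte-derived dendritic cells, a pair of galactose-type lectins was higher in IN@OMVs than in Control. Of 21 listed genes 17 were tested, and against Control 2 rose and 1 fell (3.32% and 3.24% of all tested genes), with a median of 0.05. Mgl2 (CD301b) stood at 188 ± 17.7 CPM in IN@OMVs, against 60.6 ± 4.70 CPM in Control (log2 fold change 1.63, edgeR adjusted p = 0.000168). Its near copy Clec10a (CD301a) was at 29.8 ± 4.89 CPM in IN@OMVs and 17.7 ± 2.53 CPM in Control (0.75, edgeR adjusted p = 0.0208). Both had fractional counts in all 9 libraries, so how their shared reads were split is uncertain. The decoy receptor gene Il1r2, which neutrophils also express, fell (-1.82, edgeR adjusted p = 0.00121). Irf4, the transcription factor of cDC2, did not pass (0.38, edgeR adjusted p = 0.618). Clec10a lost its call without IN@OMVs 3 (0.0601), Control 2 (0.0954) or Control 3 (0.102).

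Against OMVs, the same list had 2 genes higher and 1 lower in IN@OMVs (1.1% and 1.75% of all tested genes). Higher were Mgl2 (log2 fold change 1.05, edgeR adjusted p = 0.00291) and Ccl17, and lower was Il1r2 (-1.06, edgeR adjusted p = 0.0312). Ccl17, a chemokine that draws CCR4+ T cells, was at 13.04 ± 1.06 CPM in IN@OMVs and 6.85 ± 0.99 CPM in OMVs (0.93, edgeR adjusted p = 0.0296), and Control stood at 10.5 ± 2.45 CPM. Like Cd209a, it had its lowest group mean in OMVs. Ccl17 lost its call without IN@OMVs 2 or 3 (0.0798 and 0.106), any OMVs library (0.123, 0.111 and 0.0593) or Control 2 (0.062). Il1r2 lost it without IN@OMVs 2 or 3 (0.0848 and 0.119), any OMVs library (0.112, 0.0778 and 0.108) or Control 2 (0.0514). For OMVs against Control edgeR called 0 of 17 (3 at an unadjusted p under 0.05, against 8.44% of all tested genes; 2 by DESeq2, 0 by limma-voom), with a median of -0.05.

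Genes shared by cDC1 and cDC2 did not rise with Clec9a and Batf3. Of 19 tested genes edgeR called 0 in IN@OMVs against Control (4 at an unadjusted p under 0.05, against 19.8% of all tested genes; 0 by DESeq2 and limma-voom), and 15 had negative log2 fold changes, with a median of -0.16. Zbtb46, the transcription factor that separates cDCs from macrophages, stood at 6.43 ± 1.14 CPM in IN@OMVs, 6.36 ± 0.951 CPM in OMVs and 6.64 ± 0.464 CPM in Control, and its log2 fold change for IN@OMVs against Control was -0.05 (edgeR adjusted p = 0.922). Itgax, which encodes CD11c and is also made by macrophages, gave 0.28 (edgeR adjusted p = 0.209). Without IN@OMVs 1, 3 genes of this list were called lower and Zbtb46 gave 0.09. Against OMVs 1 gene fell (1.75% of all tested genes), Traf1, a signalling adaptor of TNF receptors (-0.49, edgeR adjusted p = 0.0224). The call ended without IN@OMVs 2 or 3 (0.0726 and 0.0953) or any OMVs library (0.0866, 0.0921 and 0.0779). Without IN@OMVs 1, 4 genes of the list fell against OMVs. None of the 19 was called for OMVs against Control (2 at an unadjusted p under 0.05, against 8.44% of all tested genes; 0 by DESeq2 and limma-voom).

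Genes listed for the mature migratory programme, which dendritic cells switch on before they leave for lymph nodes, went in both directions. Which cells of this macrophage sort made their transcripts was not tested. Of 28 listed genes 26 were tested. In IN@OMVs against Control 5 rose and 3 fell (3.32% and 3.24% of all tested genes), with a median of -0.05. The number that rose was 2 without Control 3, and the number that fell was 0 without IN@OMVs 2 or any Control library, 1 without IN@OMVs 3, OMVs 1 or OMVs 2, and 7 without IN@OMVs 1. With the block, and in a fit of only the 6 libraries, 4 rose and 1 fell. Pdcd1lg2, which encodes PD-L2, stood at 36.4 ± 4.40 CPM in IN@OMVs and 9.11 ± 1.98 CPM in Control (log2 fold change 2.00, edgeR adjusted p = 0.000234). The costimulatory receptor Cd40 was at 51.8 ± 12.7 CPM in IN@OMVs and 25.8 ± 1.63 CPM in Control (1.01, edgeR adjusted p = 0.00856, and 0.0529 without Control 3). Il15, a cytokine that sustains NK and memory CD8+ T cells, gave 0.75 (edgeR adjusted p = 0.00632) and its presenting receptor Il15ra 0.47 (edgeR adjusted p = 0.00736, and 0.0502 without Control 3). The fifth was Cd274, which encodes PD-L1 (0.52), outside the rule for named genes.

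Lower in that comparison were the chemokine Ccl5 (85.6 ± 14.9 CPM in IN@OMVs against 133 ± 0.642 CPM in Control, log2 fold change -0.63, edgeR adjusted p = 0.0232), the amino acid oxidase gene Il4i1 (-0.65, edgeR adjusted p = 0.033) and Samsn1, an adaptor gene outside the rule (-0.58). With the block the adjusted p was 0.0507 for Ccl5 and 0.0528 for Il4i1. Ccl5 also lost its call without IN@OMVs 2 or 3 (0.0705 and 0.0888) or any Control library (0.0745, 0.0835 and 0.0944). Il4i1 lost it without IN@OMVs 2 (0.0877), any OMVs library (0.0568, 0.0624 and 0.057) or any Control library (0.112, 0.0948 and 0.121). Ccr7, the receptor that guides mature dendritic cells to lymph nodes, did not pass (16.1 ± 2.39 CPM in IN@OMVs, 14.1 ± 0.813 CPM in OMVs and 17.0 ± 3.16 CPM in Control, -0.08 against Control, edgeR adjusted p = 0.843). Without Control 1 its value was 0.07. Relb, an NF-kB subunit that cDC maturation needs, gave -0.21 (edgeR adjusted p = 0.161), and -0.30 without IN@OMVs 1, where it passed (0.0109).

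Against OMVs, 2 mature programme genes rose and 2 fell in IN@OMVs (1.1% and 1.75% of all tested genes), and 7 fell without IN@OMVs 1. Ccl22, the partner of Ccl17 at CCR4, was at 31.9 ± 1.81 CPM in IN@OMVs and 18.4 ± 0.879 CPM in OMVs (log2 fold change 0.79, edgeR adjusted p = 0.0196), with Control at 27.3 ± 5.92 CPM. Pdcd1lg2 gave 0.96 (edgeR adjusted p = 0.0135), Ccl5 -1.29 (209 ± 30.5 CPM in OMVs, edgeR adjusted p = 0.00152) and Tnfrsf9, the costimulatory receptor 4-1BB, -0.92 (edgeR adjusted p = 0.00604). Ccl22 lost its call without IN@OMVs 3 (0.0825) or any OMVs library (0.0829, 0.0924 and 0.0619), and Pdcd1lg2 without IN@OMVs 3 (0.0617) or OMVs 1 (0.0619). For OMVs against Control 1 gene of 26 rose (0.298% of all tested genes). It was Pdcd1lg2 (1.04, edgeR adjusted p = 0.04, and 0.127 with the block). That call held in 1 of 9 single-library omissions, that of IN@OMVs 1, and ended in the others with an adjusted p from 0.0538 without OMVs 1 to 0.26 without Control 2. The number of genes of the list that rose was 4 with DESeq2 and in the fit of only 6 libraries, 3 with no filter on low counts, 5 without IN@OMVs 1, 2 without OMVs 1, 6 without the libraries numbered 1, and 0 with limma-voom, with the block or without any other single library.

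**Figure D4:**
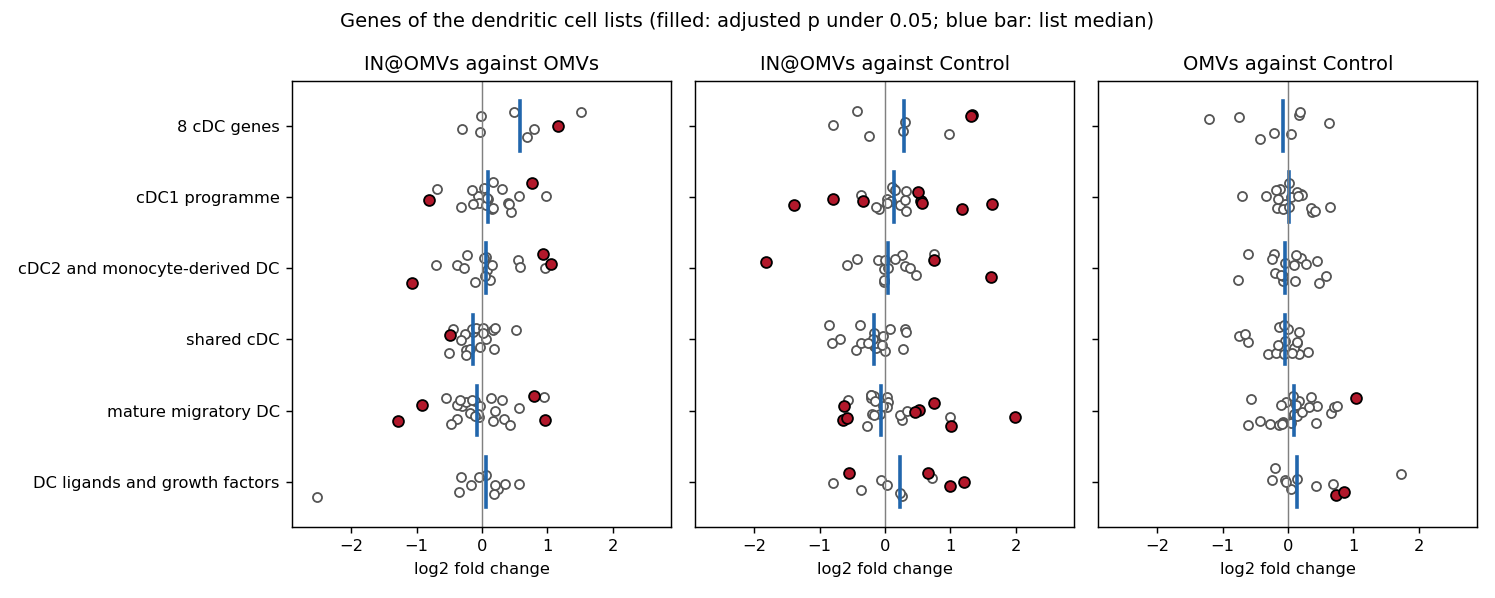
Each point is the log2 fold change (horizontal axis) of 1 tested gene of the 8 cDC genes or of a further dendritic cell list; filled points had an edgeR adjusted p under 0.05 and blue bars are list medians. For IN@OMVs against Control, the cDC1, cDC2, mature migratory and ligand lists hold filled points on both sides of 0, the 8 cDC genes hold 2 above 0, and the shared cDC list holds none.

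Flt3l and Xcl1, which encode the ligands of FLT3 and XCR1, did not pass in any comparison. Flt3l averaged 9.62 ± 1.05 CPM in IN@OMVs, 8.49 ± 0.732 CPM in OMVs and 8.19 ± 1.66 CPM in Control (log2 fold change 0.23 for IN@OMVs against Control, edgeR adjusted p = 0.503). Xcl1 was at 4.68, 1.08 and 1.75 CPM in IN@OMVs, 2.64, 1.05 and 1.31 CPM in OMVs, and 3.69, 0.584 and 0.288 CPM in Control. Library 1 was the highest of each group, as for the NK cell markers (9 genes), which summed to 101, 77.0 and 97.2 CPM in library 1 of IN@OMVs, OMVs and Control and to 24.8 to 62.8 CPM in the others. For IN@OMVs against Control Xcl1 gave 0.71 (edgeR adjusted p = 0.724), -0.11 without IN@OMVs 1, 2.50 without Control 1, and 1.68 without the libraries numbered 1 (adjusted p = 0.038). Of the 15 ligands and growth factors listed, 11 were tested. In IN@OMVs against Control 3 rose and 1 fell (3.32% and 3.24% of all tested genes), with a median of 0.23.

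Those that rose were Cxcl9 and Cxcl10, T cell attracting chemokines of macrophages and cDC1, and Vegfa, an angiogenic factor that hampers dendritic cell maturation (197 ± 26.4 CPM in IN@OMVs against 125 ± 6.47 CPM in Control, log2 fold change 0.65, edgeR adjusted p = 0.03). Cxcl9 averaged 1001 ± 154 CPM in IN@OMVs, 782 ± 138 CPM in OMVs and 431 ± 12.9 CPM in Control, and Cxcl10 413 ± 53.2, 348 ± 49.7 and 208 ± 12.6 CPM in the same order. Both rose in IN@OMVs against Control (1.22 and 0.99, edgeR adjusted p = 0.00121 and 0.00176) and in OMVs against Control (0.86 and 0.74, edgeR adjusted p = 0.0444 and 0.0459, and 0.129 and 0.135 with the block). Both of those against Control for OMVs held without IN@OMVs 1 or OMVs 1 and ended without any other library, with an adjusted p from 0.0675 for Cxcl10 without IN@OMVs 2 to 0.285 for Cxcl10 without Control 3. Cdh1, which encodes E-cadherin, the ligand of CD103, fell in IN@OMVs against Control (37.2 ± 3.26 against 54.4 ± 8.15 CPM, -0.55, edgeR adjusted p = 0.0222). Cdh1 lost its call without IN@OMVs 2 or 3 (0.0693 and 0.0858) or Control 1 or 2 (0.0589 and 0.069). Vegfa lost its own without IN@OMVs 2 or 3 (0.0838 and 0.105) or any Control library (0.11, 0.118 and 0.0821). Against OMVs edgeR called 0 of the 11 (3 at an unadjusted p under 0.05, against 14.4% of all tested genes; 0 by DESeq2 and limma-voom).

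The genes most like the members that rose were sought among 12432 tested genes with a mean of at least 1 CPM, by the same root-mean-square difference over the 9 libraries. Nearest to Clec9a, whose own profile spread by 0.54 log2 units, were Slamf7 (0.11), the guanylate-binding GTPase gene Gbp2 (0.13) and the immunity-related GTPase gene Ifi47 (0.13). Gbp2 averaged 891 ± 54.8 CPM in IN@OMVs, 532 ± 33.7 CPM in OMVs and 371 ± 43.1 CPM in Control, the same order of groups as Clec9a. Nearest to Batf3, with a spread of 0.62, were the receptor gene Cd200r4 (0.16), the urokinase gene Plau (0.17) and the chemokine gene Ccl12 (0.18). Plau averaged 206 ± 33.9 CPM in IN@OMVs, 99.3 ± 16.7 CPM in OMVs and 101 ± 8.52 CPM in Control. Cd200r4 averaged 40.2 ± 3.83, 22.1 ± 4.29 and 17.7 ± 1.10 CPM in the same order, and Ccl12 126 ± 32.1, 71.7 ± 20.0 and 51.5 ± 5.48 CPM. For OMVs against Control edgeR called no difference in Plau, Cd200r4 or Ccl12, nor in Slamf7, Gbp2 or Ifi47. It called 0.42% of all tested genes there, so the lack of a call says little about likeness to Batf3. These are the closest of many profiles searched, and no test was made of the likeness.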

How the data were processed

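Per the file headers, the table has 1 column per library. Its expected counts (estimated reads per gene) were deposited by the authors without normalization, judged from the values: 88.8% to 89.6% were whole, and totals differed. The submitters' processing notes name RSEM, Bowtie2 and BWA, and the builds mm9 and hg19, with roles and versions not given in the sources used here. Libraries were made with oligo-dT beads, per the labels' protocols.

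Expected counts were rounded and fitted with edgeR 4.0.16 (R 4.3.3): TMM factors, filterByExpr (13090 of 18042 genes kept), 1 mean per group over 9 libraries, quasi-likelihood tests, Benjamini-Hochberg adjustment over all tested genes, threshold 0.05. The steps were tested on simulated data. Alternatives were DESeq2 1.42.0, limma-voom 3.58.1, RLE factors, no filter, unrounded counts, 2-group fits, a replicate block and omitted libraries.

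Members, lists and tests were chosen with earlier results of these data known. Named were the 8 members, a fixed set of 16 genes, up to 6 called genes with the smallest p per list and comparison, and the 3 nearest profiles of each called member. Genes outside this rule are marked. RefSeq synonyms resolved 2 listed symbols. A further promoter motif is not reported here.

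Replicate numbers were checked as the correlation of deviations from group means: 0.45, 0.31 and 0.15 for IN@OMVs with Control, 0.53, 0.37 and 0.12 for OMVs with Control. All exceed 0.1, the minimum set for reading numbers as pairs, a choice made with block results known. Matched numbers of IN@OMVs and OMVs (0.07, 0.51 and -0.37) did not all exceed it. Unmatched numbers can exceed 0.1 too, so this minimum does not by itself mark pairs. Unmatched numbers gave 0.36 (IN@OMVs 2 with Control 3), 0.29 (IN@OMVs 3 with Control 2), 0.35 (OMVs 2 with Control 3) and 0.08 (OMVs 3 with Control 2). Library 1 of IN@OMVs and OMVs gave -0.40 to -0.31 with Control 2 and 3. In the comparisons with Control only number 1 thus stood apart, and pairs were not shown for 2 and 3. Between IN@OMVs and OMVs number 1 did not stand apart, since IN@OMVs 1 gave 0.44 with OMVs 3. The main fit has no block, and the labels do not say what a number marks.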

Additional observations from a re-analysis of the deposited data

How the results depend on the processing

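Of the members' calls, that of Clec9a in IN@OMVs against Control was kept in all 17 alternatives and that of Batf3 in 13. The call of Batf3 against OMVs was kept in 5, while its log2 fold change stayed above 0 in all 17 (0.85 to 1.35). The cause of the lost calls was not tested. Members called higher against OMVs numbered 2 with DESeq2 and 0 with limma-voom, in the fit of only the 6 libraries compared, with the replicate block and without the libraries numbered 1 (range 0 to 1 over single omissions). Against Control they numbered 1 to 2 over single omissions. For OMVs against Control 0 were called under every alternative.

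Genes called over the whole table in IN@OMVs against OMVs (373) numbered 619 with DESeq2, 195 with only 6 libraries, 844 without the libraries numbered 1 and 180 to 786 over single omissions (306 with the block). In IN@OMVs against Control (858) they numbered 519 with only 6 libraries, 1475 without those numbered 1 and 393 to 1635 over single omissions. For OMVs against Control (55) they numbered 190 with DESeq2, 36 with limma-voom, 115 with only 6 libraries, 20 with the replicate block, 313 without those numbered 1 and 0 to 266 over single omissions. The highest counts over single omissions came without IN@OMVs 1.

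Directions turned only for values that did not pass. In IN@OMVs against OMVs, Flt3 ranged from -0.27 to 0.16 over single omissions and was 0.15 without the libraries numbered 1. Itgae ranged from -0.42 to 0.49, was 0.08 without those libraries and 0.0172 with the replicate block, and Fscn1, from -0.54 to -0.0186 over single omissions, was 0.11 without them. In IN@OMVs against Control, the ranges were -0.85 to 0.13 for Itgae, -0.48 to 0.03 for Fscn1, -0.23 to 0.0316 for Id2, -0.10 to 0.37 for Cadm1, -0.15 to 0.14 for Wdfy4, -0.12 to 0.09 for Zbtb46, -0.20 to 0.0685 for Ccr7 and -0.11 to 2.50 for Xcl1. Without the libraries numbered 1, Fscn1 was 0.0426, Cadm1 -0.12, Wdfy4 -0.13, Zbtb46 0.14 and Ccr7 0.03. For OMVs against Control, the ranges were -0.0155 to 0.33 for Batf3, -0.12 to 0.51 for Xcr1, -0.36 to 0.0371 for Dpp4, -0.93 to 0.14 for Itgae and -0.074 to 0.20 for Fscn1, which was -0.07 without the libraries numbered 1.

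Beyond the values printed beside the results, the block ended the call of Batf3 against OMVs (adjusted p = 0.0818) and of Ccl17 (0.0771), and changed no other call of a member. Low counts limit what can be detected for Xcr1 and Cd209a. Counts were low for the called members as well, 22 to 69 reads a library for Clec9a and 24 to 90 for Batf3. The standard errors were widest for Itgae (0.50).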

Other observations

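Markers of plasmacytoid dendritic cells, which are a separate lineage that makes type I interferon, went in different directions. The 13 listed genes summed to 560, 464 and 488 CPM in IN@OMVs, 410, 413 and 456 CPM in OMVs, and 392, 425 and 412 CPM in Control. All IN@OMVs sums lay above all others. Abundant genes weigh most in a sum, and the mean log2 CPM over the 13 genes did not separate the groups. This mean ran from 2.30 to 2.38 for IN@OMVs libraries, from 2.35 to 2.56 for OMVs libraries and from 2.30 to 2.54 for Control libraries. Of the 8 genes tested, 3 had positive and 5 negative log2 fold changes for IN@OMVs against Control, with a median of -0.24. In that comparison 1 gene rose (3.32% of all tested genes) and 0 fell. It was Bst2, an interferon-induced surface protein gene that many cells express (162 ± 12.6 CPM in IN@OMVs against 112 ± 7.68 CPM in Control, log2 fold change 0.53, edgeR adjusted p = 0.00336), chosen after its values were seen. Siglech, a lectin gene that defines the lineage, had 3, 1 and 2 reads in IN@OMVs libraries 1, 2 and 3, 26, 6 and 3 reads in OMVs, and 28, 5 and 4 reads in Control, and did not pass the filter on low counts. The highest were library 1 of OMVs and of Control, while IN@OMVs 1 was low.

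Relatives of Cd209a were scarce, and their values are given as chosen after being seen. Cd209d had 5, 3 and 0 reads in IN@OMVs, 1, 2 and 0 reads in OMVs, and 9, 9 and 7 reads in Control. Cd209b had 1, 4 and 2 reads in IN@OMVs, 0 in each OMVs library, and 3, 2 and 4 reads in Control. Cd209e had 6, 1 and 3 reads in IN@OMVs, 1, 0 and 1 reads in OMVs, and 0, 3 and 2 reads in Control. None of these was tested, since all failed the filter on low counts. Cd209c averaged 2.99 ± 1.16 CPM in IN@OMVs, 1.54 ± 0.542 CPM in OMVs and 1.77 ± 0.285 CPM in Control (log2 fold change 0.96 for IN@OMVs against OMVs, edgeR adjusted p = 0.259).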
